A study of Drosophila melanogaster with 8 samples.

Results

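Promoter sites of the X chromosome were described in a ChIP-seq map of RNA polymerase II (RNAPII), that is, chromatin fragments precipitated with an antibody and sequenced. The cells were S2 cells, which were derived from Drosophila melanogaster embryos and resemble blood cells. In 1 condition the linker histone H1 was knocked down, and in the control the knockdown was directed at LacZ, a bacterial gene without a fly counterpart. The 8 libraries were 2 RNAPII precipitations and 2 inputs of 10% of the chromatin from each condition. A site was a member when it lay on X in the dm3 build, was annotated as a promoter and had its centre within 1000 bp of a transcription start site (TSS). There were 1186 such sites among 14357 in the whole table and among 1648 on X. All X sites annotated as promoters met the distance limit, so it removed none. Both conditions had their own peak list, and most places entered the table once from each. Overlapping member sites were therefore merged into 669 loci, each represented by its site of highest mean concentration. The comparison set was 6067 promoter sites of the autosomal arms 2L, 2R, 3L and 3R, chosen in the same way and merged into 3326 loci.

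In Drosophila males the genes of the single X are transcribed at about the level reached by the paired X chromosomes of females. This dosage compensation is carried out by the male-specific lethal (MSL) complex, which holds the proteins MSL-1, MSL-2, MSL-3, MLE and MOF and the noncoding RNAs roX1 and roX2, and which acetylates histone H4 along X-linked genes. S2 cells are male in this respect and carry the complex on X. Linker histone H1 binds the nucleosome where DNA enters and leaves it and helps to compact chromatin. H4 acetylation of the kind placed by MOF loosens chromatin folding, so the X of male cells is a chromosome on which the loss of H1 can be set beside that on the autosomes.

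The values are the authors' log2 concentrations, 1 mean per condition and site, and their difference, called the fold below (H1 knockdown minus LacZ). Read depth and values per library were not known here, so no spread between replicates could be computed. The sources used here do not give the scaling between libraries, which means that equal concentrations need not be equal occupancy. The median fold of all 14357 sites was 0.08. The authors' p-values come from DiffBind and measure the spread between these libraries only, since the labels do not say whether replicates were separate cultures. Loci of 1 chromosome share the same libraries and are not replicates, so X and autosomes are compared below by description, without a test. The files hold no measure of how far H1 was depleted.

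The chromosome and cell labels were checked first. Of the 652 genes named at member sites, all 652 had their gene number in a Release 6 gene table (the RefSeq annotation of the newer assembly), which placed 650 on X and gave no chromosome for the other two. Among 12 genes listed as markers of hemocytes or S2 cells, 9 had an RNAPII site, and LacZ concentrations at these ran from 7.14 at He to 9.73 at Pxn in the authors' deposited table. The markers NimC1, gcm and the X-linked crystal cell gene lz had no site. None of the X-linked yolk protein genes Yp1, Yp2 and Yp3, which mark female fat body, had a site. Of the genes listed for the male state, msl-2 had a promoter site on 2L. That site does not by itself mark the state, because msl-2 is blocked in females at translation. The gene roX2 had a site 159 bp from its TSS that the authors annotated at a transcription termination site, while roX1 had none.

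X promoters carried somewhat less RNAPII signal than autosomal promoters in the LacZ control cells. The median LacZ concentration was 8.16 at X loci, with quartiles of 7.57 and 8.81, and 8.41 at autosomal loci, with quartiles of 7.79 and 8.96. The X median was thus 0.25 lower on the log2 scale, and the 2 distributions overlapped over most of their range. In H1 knockdown cells the medians were 8.39 and 8.60, a gap of 0.21. The 4 autosomal arms had LacZ medians between 8.375 on 3L and 8.435 on 2R, so that of X was below each of them. X sites were also slightly narrower, with a median width of 516 bp against 554 bp. Concentration rose with site width at X loci (Spearman's rho 0.928 across 669 loci, a description of sites that share libraries), so the level of a site is not a level per base. The number of X copies in these cells was not measured, and fewer copies and less RNAPII per copy cannot be told apart.

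After H1 knockdown nearly all X promoters had a concentration above that in LacZ cells, by a small amount. The fold was above 0 at 647 of 669 loci (96.7%), with a median of 0.18, quartiles of 0.10 and 0.28, and a range from -0.14 to 0.70. Folds above 0 made up 68.2% of all sites in the table and 93.3% of autosomal promoter loci. The median autosomal fold was 0.16, with quartiles of 0.07 and 0.25. X therefore stood 0.02 above the autosomes before concentration was considered. The other 266 loci of X, which were not annotated as promoters, had a median fold of 0.00, with 49.6% above 0. Some of these still lay near a TSS, such as the roX2 site at 159 bp.

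None of the 669 loci passed a false discovery rate (FDR) of 0.05 by the authors' DiffBind test, and neither did any other site of the table. At an unadjusted p under 0.05, 48 X promoter loci were called higher (7.17%) and 0 lower. Counted without merging, 61 of 1186 sites were called higher (5.14%) and 1143 had a fold above 0 (96.4%). The same threshold called 3.99% of all 14357 sites higher and 0.0557% lower, and 5.09% of all merged loci higher. Among autosomal promoter loci it called 207 higher (6.22%) and 1 lower (0.0301%). With no difference at any site, 5% of tests would fall under this threshold, divided over both directions, whereas the X calls were 48 higher and 0 lower. Because no locus passed the FDR and the scaling between libraries is not given, the 48 loci are a ranking rather than a set of established changes. At an unadjusted p under 0.01, 7 X loci were called higher (1.05%), beside 0.872% of autosomal promoter loci and 0.999% of all merged loci. Without merging the shares were 0.759% of X promoter sites and 0.787% of all sites.

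The fold varied with how much RNAPII a promoter carried, on X as on the autosomes. Across the 669 X loci, Spearman's rho between fold and mean concentration was -0.529, and across the 3326 autosomal loci it was -0.484. Both are descriptions over loci that share libraries, and the mean concentration holds the same reads as the fold. The X loci also included 141 that were peaks of the knockdown list only, with a median mean concentration of 7.37 and a median fold of 0.33. What these loci add to the relation was not tested. X loci were divided into 5 bins of nearly equal size by mean concentration. In the lowest bin, from 6.74 to 7.57, the median fold of 137 X loci was 0.29 and that of 452 autosomal loci 0.28. The medians in the next bin were both 0.23, and in the third they were 0.21 on X and 0.20 on the autosomes. In the fourth bin they were 0.13 and 0.14, and in the highest, from 8.97 to 10.68, they were 0.09 and 0.07. The X and autosomal medians thus followed each other within 0.02 in every bin, while the fold fell about as far from the lowest to the highest bin in both sets.

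**Figure D1:**
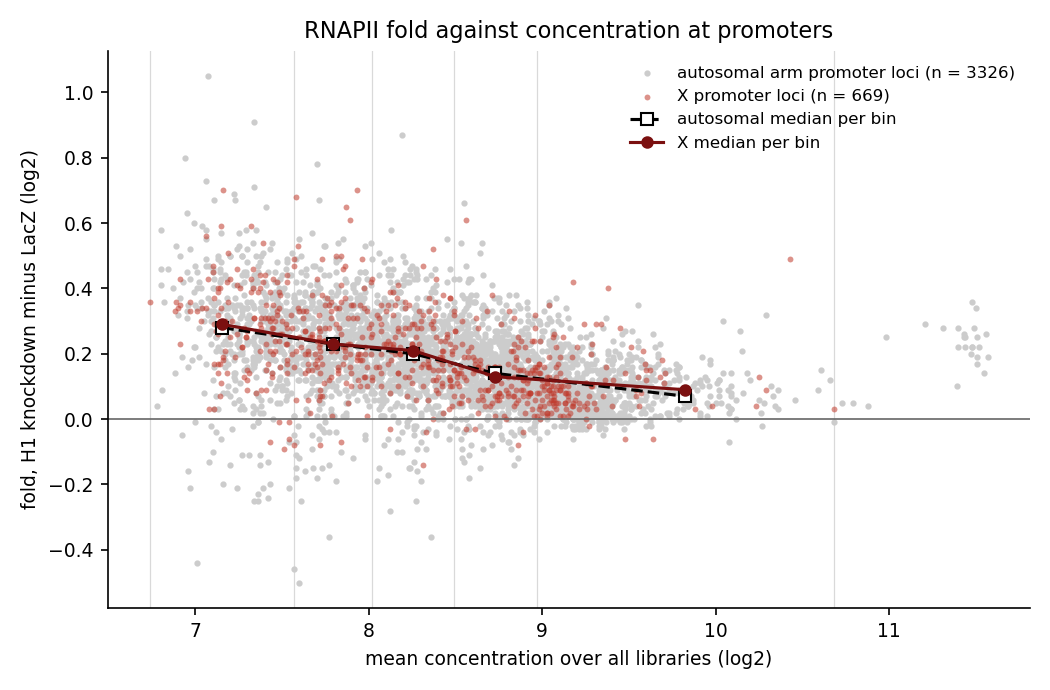
Each point is 1 promoter locus, with its mean log2 concentration over all libraries on the x axis and its log2 fold (H1 knockdown minus LacZ) on the y axis; vertical lines bound the 5 bins, and circles and squares are the medians of 669 X and 3326 autosomal loci per bin, drawn at the bin's middle. The medians fall from 0.29 to 0.09 on X and from 0.28 to 0.07 on the autosomes and lie close together in every bin.

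Because X promoters had lower concentrations, autosomal loci were weighted so that their share in each bin equalled that of X. The matched autosomal median fold was 0.17, which leaves X 0.01 above it. The matched share of loci called higher was 7.14% on the autosomes, beside 7.17% on X. The share of autosomal loci with a fold above 0 stayed at 93.3%, against 96.7% on X. Matched in the same way, arm 2L had a median of 0.18, 2R 0.16, 3L 0.18 and 3R 0.17. The matched shares called higher were 8.10% on 2L, 6.28% on 2R, 7% on 3L and 6.97% on 3R, and the X value lay inside this range. The matched shares with a fold above 0 ran from 92.2% on 2L to 94.1% on 3L, and the X share lay above all 4. When each autosomal arm was set against the other arms at matched concentration, its median differed by -0.02 on 2R, -0.01 on 3R, and 0.02 on 2L and 3L. The difference of 0.01 seen for X was no larger than these differences between autosomal arms.

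**Figure D2:**
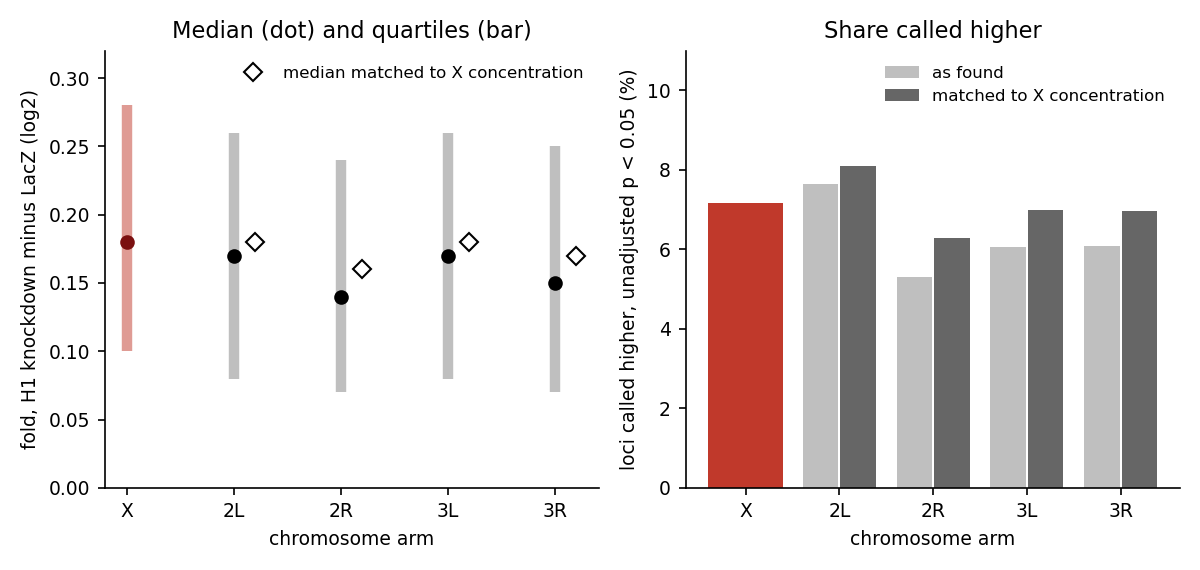
Left, the median (dot) and quartiles (bar) of the log2 fold over promoter loci of each arm, with the median after matching to X concentrations as an open diamond; right, the percentage of loci called higher at an unadjusted p under 0.05, as found (light) and matched (dark). The X median of 0.18 and share of 7.17% lie at or inside the range of the matched autosomal arms, which runs from 0.16 to 0.18 and from 6.28% to 8.10%.

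Calls were concentrated at promoters with little RNAPII. In the 3 lower bins 43 of 402 X loci were called higher (10.7%), beside 167 of 1663 autosomal loci (10.0%). In the 2 upper bins 5 of 267 X loci were called (1.87%), beside 40 of 1663 autosomal loci (2.41%). Within these the split was uneven. In the fourth bin 1 of 135 X loci (0.741%) and 4.46% of autosomal loci were called, and in the highest 4 of 132 X loci (3.03%) and 0.569% of autosomal loci. These counts are small, and the uneven split was not tested. The 48 called loci had a median mean concentration of 7.855, and the 621 others one of 8.34. Of the 48, 27 were among the 141 X loci that were peaks of the knockdown list only. Those 141 had a median mean concentration of 7.37 and entered the table only through the condition in which they were high. The part of this in the pattern of calls was not tested.

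The 10 X promoter loci with the smallest p all had folds between 0.47 and 0.70. At the promoter of Ns3 (X, 1358100 to 1358648), a GTPase gene of the nucleostemin family, the concentration was 7.20 in LacZ and 7.88 in H1 knockdown cells, a fold of 0.68 (FDR 0.369) in the authors' deposited table. The promoter of DAAM (X, 1216121 to 1216520), which encodes a formin that nucleates actin filaments, went from 7.55 to 8.16, a fold of 0.61 (FDR 0.645) in the authors' deposited table. CG43155 (X, 11353507 to 11353821) had the lowest LacZ level of the 10, 6.76, and reached 7.47 (fold 0.70, FDR 0.928) in the authors' deposited table. These were the only X promoter loci with an FDR under 1.

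The remaining loci of this group belonged to genes of several functions. Klp3A, which encodes a kinesin of the central spindle, went from 8.06 to 8.53 (fold 0.47) in the authors' deposited table. The promoter of mxc (X, 9137285 to 9137939), the scaffold gene of the histone locus body where histone genes are transcribed, had 7.69 and 8.18 (fold 0.49) in the authors' deposited table. RpIIIC160, the gene of the largest subunit of RNA polymerase III, had 7.31 and 7.83 (fold 0.53) in the authors' deposited table. Pa1, whose product belongs to a histone H3 lysine 4 methyltransferase complex, had 7.47 and 7.95 (fold 0.49) in the authors' deposited table. Zpr1, a zinc finger protein gene, went from 6.82 to 7.42 and rdgB, a phosphatidylinositol transfer protein gene, from 7.57 to 8.07 in the authors' deposited table. CG32803 had a fold of 0.59 from a LacZ level of 6.99 in the authors' deposited table. All 10 loci had a LacZ concentration under the X median of 8.16. Only DAAM, Pa1 and rdgB were peaks of both lists. Ns3, CG43155, Klp3A, CG32803, mxc, RpIIIC160 and Zpr1 were peaks of the knockdown list only, and so entered the table through the condition in which they were higher.

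**Figure D3:**
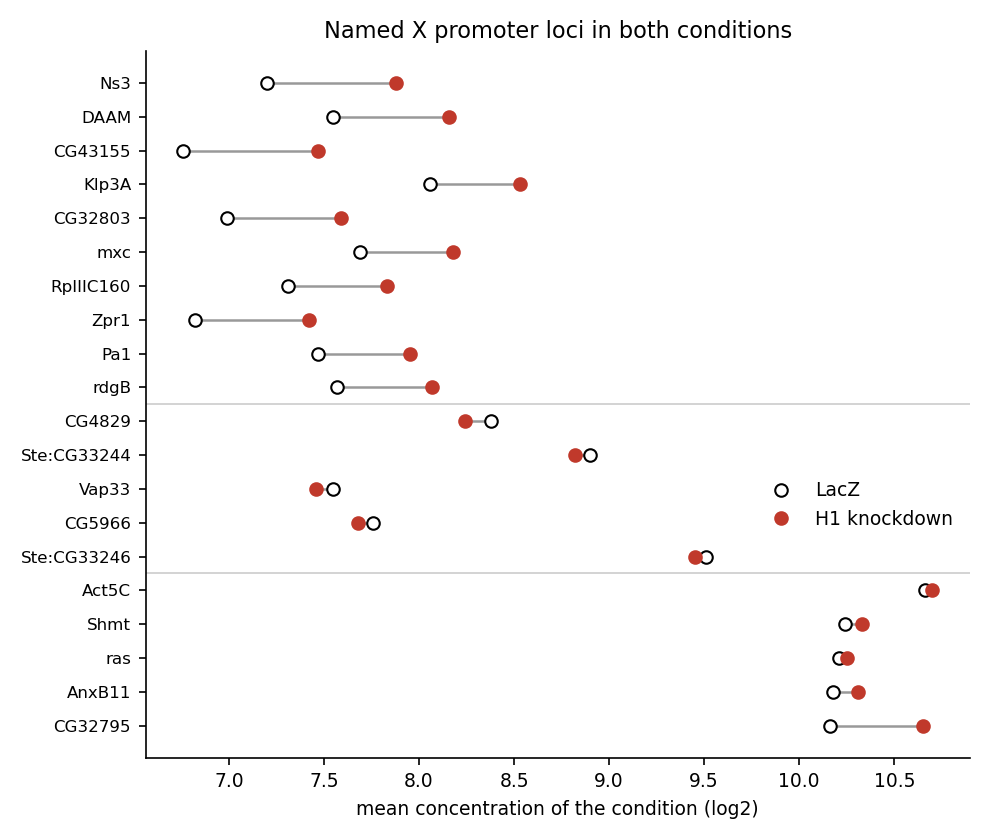
For each named X promoter locus, the open circle is the mean log2 concentration in LacZ cells and the filled circle that in H1 knockdown cells, with the 10 loci of smallest p and a positive fold at the top, the 5 of smallest p and a negative fold in the middle and the 5 of highest LacZ concentration at the bottom. The knockdown value lies to the right by 0.47 to 0.70 in the top group and by 0.03 to 0.13 in the bottom group except CG32795, at 0.49.

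Further called loci, chosen after their values were seen, belonged to several cell functions. They are not separated here by peak list, and 27 of the 48 called loci were peaks of the knockdown list only. Of cell division genes, feo, which encodes the protein that bundles central spindle microtubules, had a fold of 0.54 and pon, a partner of Numb in asymmetric division, one of 0.46 in the authors' deposited table. Of DNA repair genes, DNAlig4, the ligase gene of end joining, had 0.44 in the authors' deposited table. Of chromatin genes, Cfp1, which encodes the CXXC finger protein of the Set1 methyltransferase complex, and Lint-1 each had 0.46 in the authors' deposited table. Of developmental transcription genes, sd, the TEAD factor of the Hippo pathway, had 0.35 and the LIM-only gene Bx 0.38 in the authors' deposited table. Genes described only as uncharacterized proteins made up 19 of the 48 called loci (39.6%) and 171 of the 621 others (27.5%), and this difference was not tested.

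The 5 X promoters with the highest LacZ concentration separated into 4 with small folds and 1 with a large one. Act5C, the gene of the main cytoplasmic actin (X, 5794542 to 5796780), had 10.66 in LacZ and 10.70 in knockdown cells, a fold of 0.03 in the authors' deposited table. Shmt, the serine hydroxymethyltransferase gene, had a fold of 0.09 and ras, the IMP dehydrogenase gene raspberry, one of 0.04 in the authors' deposited table. AnxB11, an annexin gene, had a fold of 0.13 in the authors' deposited table. CG32795 (X, 2683593 to 2686878) went from 10.16 to 10.65, a fold of 0.49 (unadjusted p 0.039, FDR 1) in the authors' deposited table. The other 131 loci of the highest bin had folds from -0.06 to 0.42.

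The CG32795 locus was also the widest X promoter site, at 3286 bp, and its fold enrichment over input was only 4.38 in the knockdown list, where the 164 most enriched X promoter sites began at 10.2. The LacZ list held narrower sites inside it. The one of 415 bp centred 48 bp from the TSS had a fold of 0.13, and one of 517 bp at -183 bp from its nearest TSS had a fold of 0.50, both in the authors' deposited table. The high concentration of this locus therefore came with a large width, and the larger fold was not found at the narrow TSS site.

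Folds below 0 were found at 18 X loci, and 4 more were listed at 0 to the 2 decimals deposited. The lowest was at CG4829 (X, 16710711 to 16711214), with 8.38 in LacZ and 8.24 in knockdown cells, a fold of -0.14 and an unadjusted p of 0.397 in the authors' deposited table. A site at -974 bp from the TSS of Vap33, the gene of an endoplasmic reticulum contact-site protein, had -0.09, while the site at -108 bp from that TSS had 0.33 in the authors' deposited table. The promoter of the lipase gene CG5966 had -0.08 in the authors' deposited table. None of the 18 was called lower.

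The Stellate genes accounted for 6 of these 18 loci. Stellate is a tandemly repeated X-linked gene related to the beta subunit of casein kinase 2, and in the male germ line its copies are silenced by piRNAs of the Suppressor of Stellate repeats on the Y chromosome. All 6 Stellate loci, named for 5 copies, had a fold below 0, from -0.08 to -0.02, with a median of -0.04. The promoter of Ste:CG33244 had 8.90 in LacZ and 8.82 in knockdown cells, and that of Ste:CG33246 had 9.51 and 9.45, in the authors' deposited table. Of the other 296 X promoter loci between mean concentrations of 8.33 and 9.48, the range of the Stellate loci, 1 had a fold below 0, and their median was 0.12. The fold enrichment over input of the Stellate sites ran from 1.30 to 1.78, and the median of those other loci was 10.2. The copies are nearly identical, so reads may have been placed on any of them, and the 6 loci are not independent. The part of read placement in these folds was not tested. Stellate was singled out after its values were seen.

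Most X promoter loci were peaks in both conditions. Of the 669 loci, 525 (78.5%) overlapped a peak of both lists, 141 (21.1%) a peak of the knockdown list only and 3 (0.448%) a peak of the LacZ list only. The autosomal shares, matched on concentration, were 76.9%, 22.4% and 0.733%. The lists are named by condition and not by replicate, so peaks appear to have been called on pooled libraries. Replicates therefore cannot be compared. The 141 loci of the knockdown list only had a median mean concentration of 7.37 and a median fold of 0.33, and all 141 had a fold above 0. The authors called 27 of these 141 higher (19.1%) and 21 of the 525 loci found in both lists (4%), beside 18.9% and 3.82% of the corresponding autosomal loci. The autosomal loci of the knockdown list only had a median fold of 0.31. List membership and fold were measured on the same libraries, so they are not independent. The 3 loci of the LacZ list only lay at Vap33, Obp18a and Ste:CG33243, with folds of -0.09, -0.07 and -0.04 in the authors' deposited table.

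Within each peak list, sites with stronger enrichment over input had smaller folds, as for concentration. The fold enrichment is the authors' value for each peak and ranks sites within 1 list. X loci that were peaks of the knockdown list only had a median enrichment of 2.26, and their part in the medians of that list was not tested. The 164 X promoter sites of the knockdown list with enrichments up to 2.70 had a median fold of 0.29, and the 164 above 10.2 had one of 0.08. Of these, 23 and 0 were called higher. In the LacZ list the 133 least and the 133 most enriched sites had medians of 0.21 and 0.07, with 11 and 0 called.

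At most loci the overlapping sites of both lists had nearly the same fold. At the 508 loci with a promoter site of each list, the folds of the sites of highest concentration in each list differed by a median of 0.01 and by at most 0.17, and they had opposite signs at 2 loci. Over all sites of a locus the differences reached 0.37, at CG32795, followed by 0.34 at CG15771, and both are among the 9 loci with more than 2 sites. Separate promoters of 1 gene could also differ. The 32 genes with at least 2 X promoter loci had a median range of 0.12 between their loci. For CG44774 the folds of 3 loci ran from 0.17 to 0.70, and for the glycolytic regulator gene Pfrx from 0.07 to 0.44. The kinase gene sgg, with 3 promoter loci, had folds from 0.06 to 0.28.

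Along the X, the median fold of windows of 2 Mb was between 0.145 and 0.23 over the 11 windows with at least 43 loci. The highest median belonged to the window from 14 to 16 Mb, where 82 loci had 0.23 against a matched autosomal median of 0.17, a difference of 0.06. The other 10 windows differed from their matched autosomal medians by -0.01 to 0.03. The share called higher was highest in the 2 Mb at the distal tip, with 9 of 67 loci (13.4%, matched autosomal share 7.49%), followed by 10 of 82 (12.2%) from 14 to 16 Mb. It was lowest from 6 to 8 Mb, with 1 of 65 (1.54%). The 48 autosomal windows with at least 20 loci had differences from -0.05 to 0.09 and shares from 0 to 27.3%. Both upper limits came from 1 window of 44 loci, the first 2 Mb of 2R. That window was set apart after its values were seen. In the other 47 autosomal windows the largest difference was 0.05 and the largest share 13.6%. These stand beside 0.06 for X from 14 to 16 Mb and 13.4% for the X tip, themselves the largest of the 11 X windows. Among neighbouring promoter loci, 5 adjacent pairs were both called. The closest was CG13373 and CG32817 with a gap of 1751 bp, followed by Pa1 and hop with 8299 bp.

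Genes of dosage compensation were taken from all chromosomes, because most lie on autosomes. Of 11 listed genes, 1 had an X promoter locus, 6 had sites elsewhere or of another annotation and 4 had none, among them the X-linked genes mof and roX1. Sxl, the X-linked switch gene of sex determination whose protein blocks msl-2 translation in females, had 8.94 in LacZ and 9.02 in knockdown cells, a fold of 0.08 in the authors' deposited table. The site at roX2 had 8.36 and 8.55, a fold of 0.19 in the authors' deposited table. Off the X, the promoters of msl-1 and msl-2 had folds of 0.25 and 0.23, and those of the H3 kinase gene JIL-1 and of Unr, a partner of Sxl, had 0.17 and 0.09 in the authors' deposited table. The RNA helicase gene mle on 2R had the largest fold of the list, from 7.47 to 7.89 (0.42, unadjusted p 0.0417, FDR 1) in the authors' deposited table. It lies in the first 2 Mb of 2R, the window set apart above, where 27.3% of 44 promoter loci were called higher. None of the 7 genes with a site had an FDR under 1.

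X-linked genes were then read by function, each at its promoter site of highest concentration. The lists were written from general knowledge of X-linked genes. For the counts of called genes below, the same threshold called 7.17% of all X promoter loci and 3.99% of all sites higher. With so few members per list, these counts are not read as a result for the list. Of 23 genes of transcription and chromatin, 16 had an X promoter locus, all 16 had a fold above 0, and the median was 0.21, beside 0.18 for all X loci. The authors' unadjusted calls marked 2 of the 16 as higher, mxc and Trf4-1, a noncanonical poly(A) polymerase gene, which went from 9.16 to 9.56 (fold 0.40) in the authors' deposited table. The bromodomain gene fs(1)h had a fold of 0.28 and the corepressor gene Smr 0.31 in the authors' deposited table. Polr2A, the gene of the largest subunit of RNAPII itself and named here for that reason, had 8.94 and 9.06 (fold 0.12) in the authors' deposited table.

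Translation genes had the smallest folds of the lists with at least 3 members. Of 17 genes, 14 had an X promoter locus, with a median fold of 0.085, a range of 0.02 to 0.35, and 0 called. Their median LacZ concentration was 8.915, and X loci of the 2 upper concentration bins had a median fold of 0.10. The largest fold was at RpS14b, a small ribosomal subunit gene with a near-identical copy, RpS14a, which went from 7.88 to 8.24 (0.35, unadjusted p 0.05) in the authors' deposited table. The initiation factor genes eIF5 and eIF2alpha had folds of 0.16 and 0.14, and RpS15Aa one of 0.14, in the authors' deposited table. RpS14a had no site, and reads of the copies may not be told apart.

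Of 17 signalling genes, 11 had an X promoter locus, with a median fold of 0.17, and 1 was called higher. This was hop, the Janus kinase gene, which went from 8.28 to 8.65 (0.37) in the authors' deposited table. The only site of hop came from the knockdown list, the condition in which it was higher. The phosphatase gene csw had 0.28, the peptidoglycan receptor gene PGRP-SA 0.26 and Notch (N) 0.21 in the authors' deposited table. The ligand genes upd1, upd2 and upd3 of the pathway that hop serves had no site.

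Cytoskeleton and trafficking genes had a median of 0.14 over 11 genes of 14, with 0 called. Among them the GTPase gene Cdc42 had 0.28, the integrin gene mew 0.23, the kinase gene mbt 0.22 and the myosin phosphatase gene flw 0.16 in the authors' deposited table. Metabolic genes had a median of 0.13 over 6 of 10, with 0 called. The pyrimidine synthesis gene r had 0.33, the adenine nucleotide carrier gene sesB 0.22 and Zw, glucose-6-phosphate dehydrogenase, 0.21 in the authors' deposited table, while ras had 0.04.

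Of 8 cell cycle and replication genes, 3 had an X promoter locus, with a median of 0.27. These were mxc, which also belongs to the chromatin list and was called, the helicase subunit gene Mcm3 with 0.27 and the cyclin gene CycD with 0.22 in the authors' deposited table. Of 5 X-linked sex signal genes, Sxl and snf had a promoter locus. At snf, the gene of a protein of the U1 and U2 splicing particles, the concentration went from 7.93 to 8.33 (0.39, unadjusted p 0.0335) in the authors' deposited table. The only site of snf came from the knockdown list, the condition in which it was higher. No member of these lists passed the FDR threshold of 0.05, which 0% of all sites passed.

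**Figure D4:**
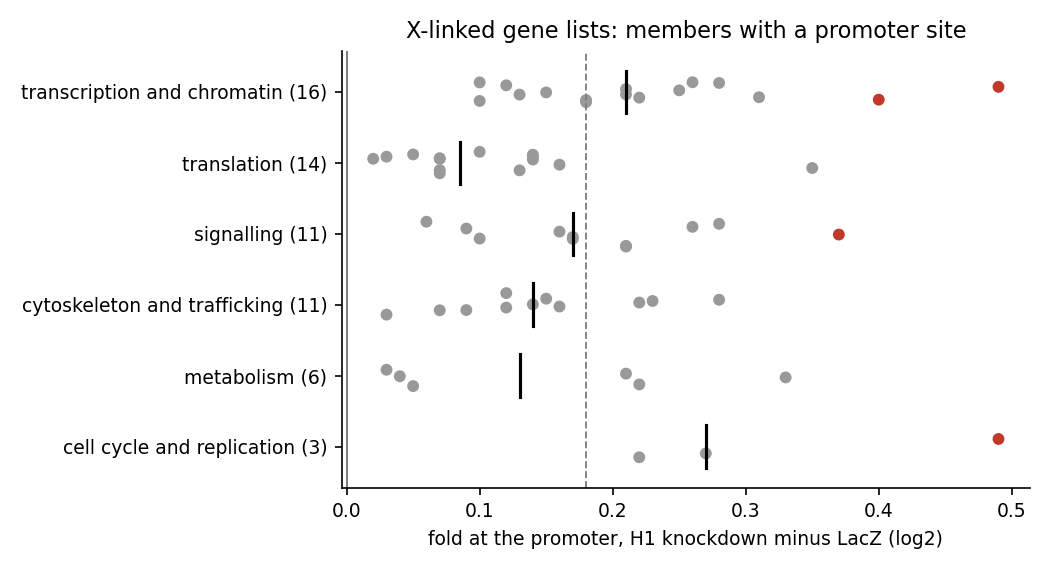
Each point is the log2 fold at the promoter of 1 X-linked gene of a list, red where the authors' unadjusted p was under 0.05; black ticks are list medians, the dashed line the median of all 669 X loci (0.18), and the number in brackets the genes with an X promoter locus. Translation genes lie mostly left of the dashed line (median 0.085) and all points lie above 0.

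Noncoding genes represented 14 of the 669 loci, with a median fold of 0.195 and a range of -0.06 to 0.65. The spliceosomal RNA gene snRNA:U5:14B had 7.51 in LacZ and 8.17 in knockdown cells (0.65, unadjusted p 0.0392) and was the 1 noncoding locus called higher, in the authors' deposited table. That is 7.14% of the 14, beside 7.17% of all X loci. The snRNA:U5:14B locus was a peak of the knockdown list only, the condition in which it was higher. Its neighbour snRNA:U2:14B had 0.33 and snoRNA:U3:9B had -0.06 in the authors' deposited table. Genes of these small RNAs have copies elsewhere in the genome that share sequence, so their reads cannot be assigned with certainty. The microRNA gene mir-980 had 9.54 and 9.70, a fold of 0.15 in the authors' deposited table.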

How the data were processed

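Each condition, H1 knockdown and LacZ, gave 2 RNAPII ChIP and 2 input libraries. Per the labels' protocols, cells were fixed in 1.8% formaldehyde for 10 minutes and chromatin was sonicated. The authors worked with the dm3 build and with Bowtie2 2.2.2 (aligner), MACS 1.4.2 (peaks), DESeq2 and DiffBind 2.10.0 (site statistics), per the submitters' processing notes. File and column names say MACS2, so the version is unsettled. Settings and library scaling are not given in the sources used here.

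The deposited table holds the authors' log2 concentrations, their log2 fold, and a p-value and FDR per site. Folds equal the difference of both concentrations to within 0.01. Per the file headers it also gives each peak's fold enrichment ratio and −log10 q, which served here to describe and filter peaks. Its pileup and −log10 p columns and the separate deposited peak lists were not used here. The authors' call column marks exactly the sites with an unadjusted p under 0.05.

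Member sites overlapping by at least 1 bp were merged. Autosomal loci were matched in 5 bins of X concentration by weighting, which was tested on simulated data. The named loci were the 10 of smallest p with a positive fold, 5 with a negative fold, 5 of highest LacZ concentration, all listed dosage compensation genes with a site, and up to 4 genes of smallest p per other list. Other genes named, Polr2A, noncoding genes and genes with several sites among them, were chosen after their values were seen. Members, lists and rules were chosen with earlier results of these data known. The planned motif search was not made, since no sequence was used here, and no fit across libraries was possible without values per library. Python 3.11.15, numpy 2.4.6, pandas 2.3.3 and matplotlib 3.10.9 were used.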

Additional observations from a re-analysis of the deposited data

How the results depend on the processing

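Alternatives that moved the X median fold by under 0.05, or a count by at most 1.5 times, were taken as unchanged. The difference between X and matched autosomal medians, 0.01, ran from 0 to 0.02 over 14 alternatives of site counting, peak list, TSS distance, low concentration, matching, centromeric ends and merging. Over the same alternatives the share of X loci with a fold above 0 ran from 95.3% to 97.6%. The autosomal share ran from 92.1% to 94.1% and was below that of X in each. The X median, 0.18, was 0.12 at loci with a mean concentration at or above the median of all sites, and 0.14 to 0.18 under its 9 other alternatives. The count called higher, 48, fell to 13 with the LacZ peak list only (2.45%, matched autosomal share 2.99%) and to 11 above that concentration. Another 7 alternatives gave 44 to 61. The count was 21 among loci in both lists, 7 at p under 0.01 and 0 at an FDR under 0.05. The last 2 are stricter thresholds. The counts of 21 and 11 are the part of the 48 that lay in those subsets, and the other 27 outside the loci in both lists were peaks of the knockdown list only. For the LacZ peak list the cause was not tested. The share of X loci in both lists, 78.5%, was 78.2% with peaks of −log10 q of at least 5. Of the 20 loci named by p or concentration, 12 had a site of the other list, and at all 12 its fold was within 0.05, while 8 had no second site. With the site nearest the TSS, 8 of 9 folds stayed within 0.05 and that of CG32795 fell from 0.49 to 0.13. Matching on width as well, leaving out Stellate, taking the site nearest the TSS and keeping loci in both lists were chosen after seeing the data. No paired analysis was possible because the files hold no values per library, and for the same reason no replicate could be left out. Read depth is unknown, so what it limits cannot be stated.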
